A study of Saccharomyces cerevisiae with 28 samples.

Results

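The region described here is the replication origin ARS1200-1 of budding yeast (*Saccharomyces cerevisiae*) together with the bases that follow it on the right, 260 bases of chromosome XII in all, from base 458991 to base 459250 of the sacCer3 genome. It is defined by position: ARS1200-1 as the RefSeq annotation lists it (458991 to 459097, 107 bases) and the right flank (459098 to 459250, 153 bases). The flank ends where a nucleosome window described below ends, and the region was chosen with earlier results of these data known. The region makes up 260 of the 2001 bases for which read depth was deposited, or 26 of 200 whole bins of 10 bases. ARS1200-1 is intergenic. It lies in the spacer NTS2-1 (458433 to 459675), 559 bases to the right of the gene for the precursor of the large ribosomal RNAs (RDN37-1, minus strand), and the flank ends 426 bases to the left of the 5S RNA gene (RDN5-1, plus strand).

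Each repeat of the ribosomal DNA (rDNA) array carries one such origin. In G1, the origin recognition complex and Cdc6 load the Mcm2-7 helicase as a double hexamer that encircles DNA, and the loaded helicases wait there until S phase. Sir2 is a histone deacetylase that silences RNA polymerase II transcription of the rDNA spacers. Sir2 also restrains the firing of rDNA origins.

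The study compared *sir2* with wild-type (WT) cells with regard to where the helicase sits and where nucleosomes lie. MNase-seq, which sequences DNA left after digestion of chromatin with micrococcal nuclease (MNase), was available as 6 libraries: *sir2* cells arrested in G1 with alpha factor and in G2 with nocodazole, WT cells arrested in the same ways, and *cdc6-1* cells, whose Cdc6 is temperature sensitive, in G1 at 37° and at 23°. Mcm2-ChEC, where the nuclease is tethered to the helicase subunit Mcm2 and calcium makes it cut nearby DNA, was available as 7 libraries of G1-arrested cells. They came from 4 strains: *sir2* (1 library) and WT (2 libraries) with the native rDNA array, and *sir2* (2 libraries) and *SIR2* (2 libraries) with an expanded rDNA array.

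The *sir2* and WT strains for MNase-seq are *MATa his3 leu2 met15 ura3* with *hmlα::HygR*, and the *sir2* strain also carries *sir2Δ::KanMx*. The *cdc6-1(ts)::KanMx* strain shares these markers except that no *HML* deletion is listed for it, and its cells went through a nocodazole block before their release into alpha factor at either temperature. The native-array ChEC strains are also *MATa his3 leu2 met15 ura3* and carry *hmlα::HygR* and *MCM2-3xFLAG-MNase-KanMx*, with *sir2Δ::LEU2* in the mutant. The expanded-array ChEC strains are *MATa*, carry the same Mcm2 fusion and share *fob1Δ::HIS3*, which removes a replication fork block protein of the rDNA. They also share *chromosome XII right armΔ::HygR* and the marker alleles *can1-100*, *trp1-1*, *ade2-1*, *his3-11*, *ura3-1* and one of *leu2*. Their *sir2* strain carries *sir2Δ::LEU2* and *hmlαΔ::NAT*, whereas no *HML* deletion is listed for their *SIR2* strain, so loss of Sir2 and loss of *HML* cannot be told apart in that pair. Each genotype is 1 strain. Native and expanded strains differ in strain background and in many alleles, so no test was made between them. Expanded means regrown by repeat expansion in the paper's system, and not larger than native. The paper lists different rDNA copy numbers for the *sir2* and the *SIR2* or WT strain of each comparison, so copy number and loss of Sir2 cannot be told apart. Its sources disagree on the copy number of the expanded *sir2* ChEC strain, and no copy number is used here.

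The 2 expanded-array libraries of a strain differ in calcium time, 30 s and 60 s by their names, so expanded-array genotypes can be paired by time. For the native strains a figure legend of the paper gives 30 s, and its methods list several times. The shallower WT library is named 60 s, and its name also carries a copper (Cu) tag that the other 2 lack. Those 2, the deeper WT and the *sir2* library, share a tag that could stand for a time but does not settle it. Calcium time and treatment may therefore not be matched in the native array. The labels call the second library of a strain a replicate without saying that it came from a separate culture, so p-values measure only the spread between libraries. The MNase-seq library names give 7.5 units of MNase for both G1 libraries and both *cdc6-1* libraries and 3.75 units for both G2 libraries, so the effects of arrest and of nuclease amount cannot be told apart. Depth over the table, divided by the read length, came to 759788 to 2233018 reads in the MNase-seq libraries and 689392 to 5022993 reads in the ChEC libraries, of which at least 68041 and 105585 fell in the 260 bases.

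The sequence of both stretches is shown because the depth profiles turn at particular bases of it. It was read from the RefSeq genome of assembly R64, whose chromosome XII has the coordinates of sacCer3. In ARS1200-1 (chrXII:458991-459097, plus strand) capitals mark the matches of at least 10 of 11 letters to the ARS consensus sequence, the motif through which the origin recognition complex binds yeast origins. In the flank (chrXII:459098-459250, plus strand) capitals mark the 50 bases from 459111 to 459160, between the rise and the fall of depth described below.
ARS1200-1: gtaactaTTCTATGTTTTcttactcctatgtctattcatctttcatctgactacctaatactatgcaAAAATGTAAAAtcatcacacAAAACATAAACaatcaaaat
right flank: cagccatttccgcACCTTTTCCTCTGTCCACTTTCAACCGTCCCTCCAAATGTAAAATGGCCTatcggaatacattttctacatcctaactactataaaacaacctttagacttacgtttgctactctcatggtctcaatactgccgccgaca

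The best match to the ARS consensus sequence was complete, 11 of 11 letters, on the minus strand at 459058 to 459068. Matches of 10 of 11 letters lay at 458998 to 459008 on the plus strand and at 459078 to 459088 and 459144 to 459154 on the minus strand. The last of these is the only one in the flank and lies inside the 50 bases in capitals. A complete match on either strand was present in 1.61% of all 260-base windows of the 16 nuclear chromosomes, and 4 or more matches of at least 10 letters in 0.379%. A match is a description of the letters and not a binding site. The origin was 72.9% A+T and the flank 56.9%, against 61.7% for the nuclear genome. The longest run of a single A or T was 5 bases, whereas 42.7% of the 260-base windows hold a run of 6 or more. The 260 bases occur 2 times on chromosome XII of the reference, the second time at 468128 to 468387 around ARS1200-2, and in the cells they occur in every repeat, so each value is an average over repeats.

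Sonicated DNA is broken without nuclease, although the steps of its G1 libraries resembled those of MNase-seq, as given below. It was available as 4 libraries from flow-sorted log-phase cells, 1 each in G1 and in S phase of a *sir2* and of a *SIR2* strain. Both strains have the expanded array, *fob1Δ::HIS3* and no Mcm2 fusion. They share *MATa*, the right-arm deletion and the marker alleles of the expanded-array ChEC strains. The mutant also carries *sir2Δ::LEU2* and *hmlαΔ::NAT*. In sonicated DNA the 260 bases took 15.0% to 15.8% of a library's depth, where an even profile would give 13.0%. The highest bin exceeded the lowest by 1.16-fold to 1.35-fold, so the profiles in the origin and flank were nearly flat. Base-to-base steps in both G1 libraries followed those of the MNase-seq libraries, with r of 0.307 to 0.432 over 260 bases in *sir2* and of 0.505 to 0.662 in *SIR2*, whereas r was −0.159 to 0.077 in both S-phase libraries. Steps of depth recurred after 50 bases in the *SIR2* G1 library and after 37 bases in the other 3, and the reason was not tested. Without the *SIR2* G1 library the share was 15.5% to 15.8%. In the S-phase libraries alone it was 15.7% in *SIR2* and 15.8% in *sir2*.

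Mcm2-ChEC depth over the flank was higher in *sir2* than in *SIR2* cells in both strain backgrounds. Depth over the origin as a whole was higher in *sir2* in the native array and overlapped between genotypes in the expanded array. The share is the percent of a library's depth over all 2001 bases that lies in a window, and an even profile would give 7.65% for the flank and 5.35% for the origin. The flank took 21.4% of the depth in the native *sir2* library, against 6.65% and 5.39% in the 2 WT libraries. In the expanded array it took 23.5% and 22.6% in *sir2*, against 15.0% and 16.0% in *SIR2* (30 s and 60 s). Every *sir2* library thus lay above every *SIR2* library of its background, and the native WT libraries were the only ones below the even share.

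The ratio of *sir2* to *SIR2* means for the flank was 3.56 in the native array and 1.49 in the expanded array. The flank share averaged 23.0% ± 0.594 in *sir2* and 15.5% ± 0.762 in *SIR2* with the expanded array (SD, n = 2 libraries each, which may share a culture). In the native array it was 21.4% in *sir2* (n = 1) and averaged 6.02% ± 0.895 in WT (SD, n = 2 libraries, which may differ in treatment). Averaged over both backgrounds, *sir2* exceeded *SIR2* by 11.5 percentage points (3 *sir2* and 4 *SIR2* libraries; exact permutation test, two-sided, with genotypes permuted inside each background, p = 0.0556, Benjamini-Hochberg adjusted p = 0.0833 over 3 tests). With 18 arrangements, 0.0556 is the smallest p this design can give, so it cannot pass 0.05. Libraries and not strains were permuted, so this p does not measure the spread between strains. Without the only native *sir2* library, the difference rests on the expanded array and was 7.53 points.

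The origin itself took 13.0% of the depth in the native *sir2* library, against 9.75% and 9.93% in WT. With the expanded array it took 12.2% and 14.3% in *sir2*, against 12.5% and 13.1% in *SIR2*. The *sir2* libraries thus lay on both sides of the *SIR2* libraries in the expanded array, and the difference between means there was 0.455 points. Over both backgrounds it was 1.80 points (exact permutation test, p = 0.167, adjusted p = 0.167). This value depended on the native *sir2* library, without which it was 0.455 points, and on scaling, since relative to the Reb1 footprint every *sir2* library exceeded every *SIR2* library (exact permutation p = 0.0556). The Reb1 footprint itself took less depth in *sir2*. Its share was 4.78% in native *sir2*, against 8.32% and 7.28% in WT. In the expanded array it was 6.16% and 6.61% in *sir2*, against 7.56% and 8.37% in *SIR2*.

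**Figure D1:**
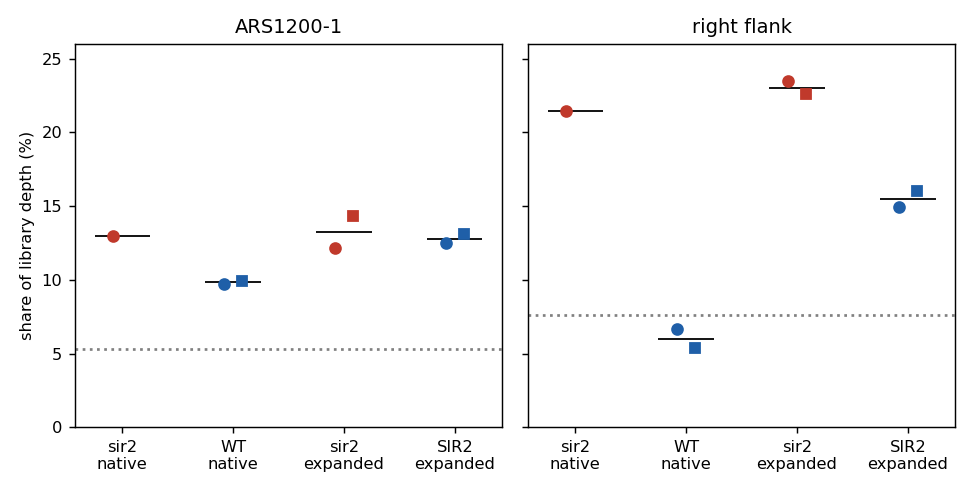
Share of each Mcm2-ChEC library's depth (percent, vertical axis) that fell in ARS1200-1 (left) and in the right flank (right), for *sir2* (red) and *SIR2* or WT (blue) strains. Points are libraries (circles: 30 s or the deeper WT library, and the native *sir2* library; squares: 60 s or the shallower WT library), bars are means and dotted lines the share of an even profile. In the flank, *sir2* points (21.4% to 23.5%) lie above all *SIR2* points (5.39% to 16.0%), whereas in the origin the expanded-array points overlap.

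The ratio of flank to origin does not depend on how a library is scaled. The log2 ratio of mean depth per base in the flank over that in the origin was 0.21 in native *sir2*, against −1.07 and −1.40 in WT. It was 0.43 and 0.14 in expanded *sir2*, against −0.25 and −0.22 in expanded *SIR2*. It was thus above 0, more depth per base in the flank than in the origin, in all 3 *sir2* libraries, and below 0 in all 4 *SIR2* libraries. The mean difference was 0.98 on the log2 scale (exact permutation p = 0.0556, the smallest possible, adjusted p = 0.0833), and 0.53 without the native *sir2* library. Reads that start left of the origin reach up to 50 bases into it. Without the first 50 bases of the origin, the log2 ratio was 0.01 in native *sir2*, against −0.54 and −0.40 in WT, and 0.30 and 0.04 in expanded *sir2*, against −0.01 and −0.04 in *SIR2*. Each *sir2* library was still above each *SIR2* library of its background, with a mean difference of 0.34 (exact permutation p = 0.0556).

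Shares of one table must add up, so the neighbours of the region are given beside it. The 260 bases to its left, where depth in WT was highest, took 29.7% in native *sir2*, against 58.1% and 63.0% in WT, and 23.2% to 24.0% in expanded *sir2*, against 33.5% to 34.6% in expanded *SIR2*. The 260 bases to its right took 18.9% in native *sir2*, against 4.29% and 6.56% in WT, and 13.2% to 14.4%, against 10.9% to 11.3%, in the expanded array. The part of these neighbours in the shares of the flank was not tested.

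**Figure D2:**
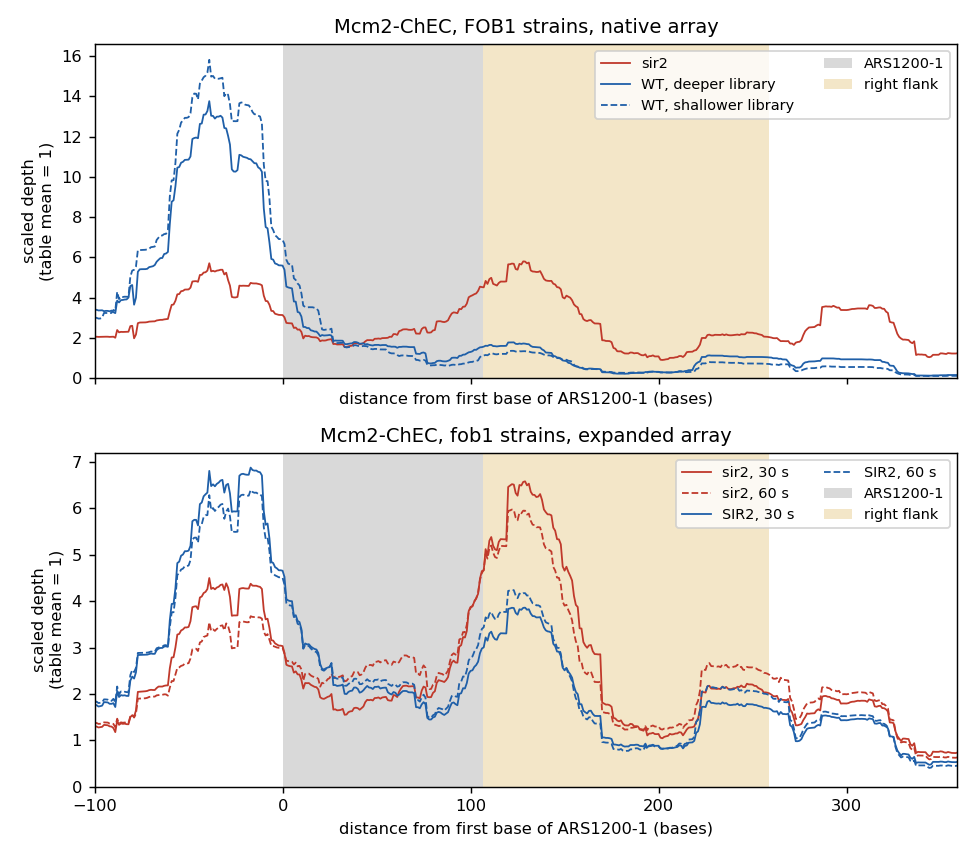
Mcm2-ChEC depth at each base, divided by the library's mean over the table (vertical axis), against distance from the first base of ARS1200-1 (bases), for the native array (top) and the expanded array (bottom), with *sir2* in red and WT or *SIR2* in blue. In *sir2* the maximum inside the 260 bases lies in the flank, 120 to 129 bases from the start of the origin, and the flank maxima are 5.80 in native *sir2* and 1.78 and 1.36 in WT.

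Within the 260 bases, the difference between genotypes turned over in the middle of the origin. In the following, scaled depth is depth divided by the library's own mean, so that 1 is the mean of the table. A bin was called higher where, in both backgrounds, every *sir2* library exceeded every *SIR2* library, and lower likewise. Of the 26 bins, 17 were higher, against 31.5% of all 200 bins, and they comprised 3 of the 10 bins within the origin, the bin across its end and 13 of the 15 within the flank. The call was lower in 3 bins, against 21% of all bins, and these were the first 3 of the origin (458991 to 459020). In the native array alone, 22 of the 26 were higher, against 48.5% of all bins, and 3 lower, against 50.5%. In the expanded array alone the counts were 17, against 31.5%, and 3, against 21.5%.

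The first bin of the origin, 458991 to 459000, had a scaled depth of 2.69 in native *sir2*, against 4.31 and 5.55 in WT, and of 2.61 and 2.72 in expanded *sir2*, against 3.97 and 3.89 in expanded *SIR2*. This bin adjoins the WT peak to the left of the origin and was the highest of the 26 in both WT libraries and in the 30 s *SIR2* library. The differences in scaled depth were greatest from 459111 to 459140, in both backgrounds. At 459111 to 459120 scaled depth was 5.64 in native *sir2*, against 1.74 and 1.34 in WT, and 6.47 and 5.91 in expanded *sir2*, against 3.82 and 4.17 in expanded *SIR2*. That bin was the highest of the 26 in all 3 *sir2* libraries and in the 60 s *SIR2* library. In relative terms the widest gap lay farther right, at 459151 to 459160, where *sir2* exceeded WT by 6.12-fold in the native array and *SIR2* by 1.77-fold in the expanded array.

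**Figure D3:**
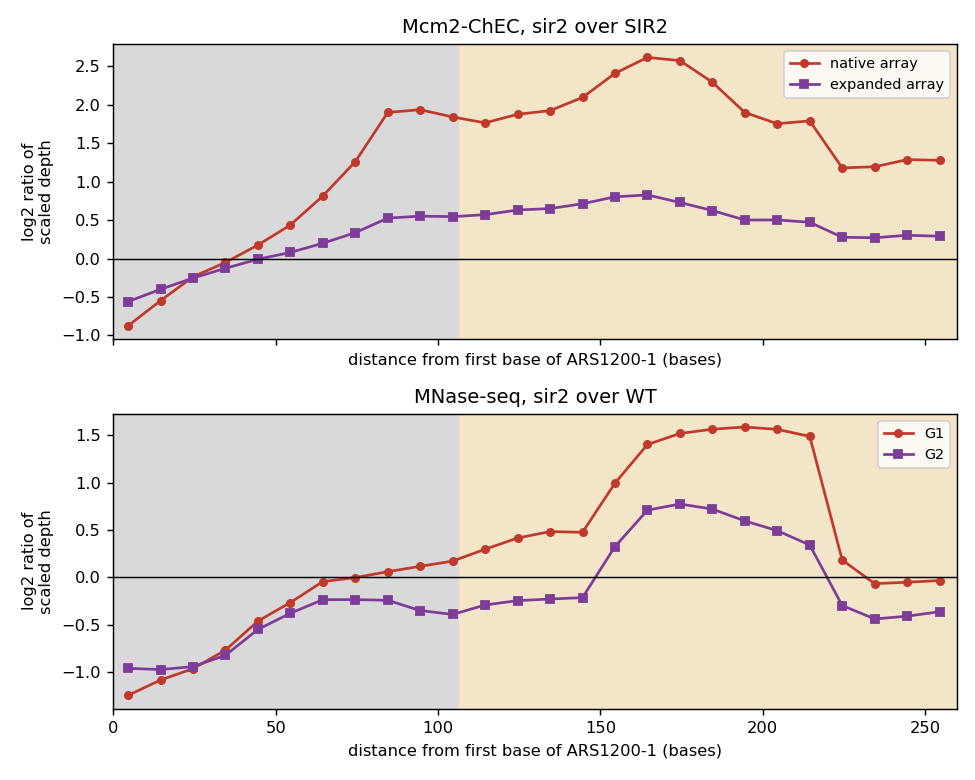
Log2 ratio of scaled depth in 10-base bins (vertical axis) against distance from the first base of ARS1200-1 (bases). Top: Mcm2-ChEC, *sir2* over *SIR2* means, native array (red) and expanded array (violet). Bottom: MNase-seq, *sir2* over WT, G1 (red) and G2 (violet). Grey marks the origin and tan the flank. Each curve starts below 0 at the left end of the origin. Both ChEC curves peak in the flank bin at 459151 to 459160 (6.12-fold and 1.77-fold).

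Single bases at which the depth jumps mark ends shared by many reads. The rise at 459111, 14 bases past the end of ARS1200-1, was among the 3 steepest rises of the 260 bases in 7 of 7 ChEC libraries. Its size, in units of a library's mean depth, was 0.85 in native *sir2*, against 0.16 and 0.14 in WT, and 1.13 and 0.76 in expanded *sir2*, against 0.53 and 0.45 in *SIR2*. The depth fell again at 459161, 50 bases later and thus one read length away, and this fall was among the 3 steepest in 5 of 7 ChEC libraries, both WT libraries being the exceptions. The position was therefore shared by both genotypes and the height differed. The 50 bases between are those in capitals in the flank sequence.

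In MNase-seq the change at 459111 was 0.0017 to 0.044 in the 6 libraries. There a rise in the origin at 458997 and a fall 50 bases later at 459047 were among the 3 steepest in 6 of 6 libraries, and the rise at 459003 in 5 of 6. In the flank, falls at 459135 and 459137 were among the 3 steepest in 4 and 3 of 6. A rise common to both assays lay in the flank at 459214, among the 3 steepest in 6 of 7 ChEC and 5 of 6 MNase-seq libraries.

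The shape of the profile over the 26 bins was nearly the same in all *sir2* ChEC libraries. Pearson's r between them was 0.967 to 0.984 across the native and the expanded array. Between *sir2* and native WT it was 0.080 to 0.328, and between *sir2* and expanded *SIR2* 0.766 to 0.867. In flank share, too, expanded *SIR2* lay between *sir2* and native WT. These are descriptions over bins that share reads with their neighbours.

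In MNase-seq, the origin took a smaller share of depth in *sir2* than in WT cells in both arrests. In G1 the origin took 5.20% of the depth in *sir2* and 7.46% in WT, a ratio of 0.698 (95% interval 0.692 to 0.703). In G2 it took 4.35% in *sir2* and 6.33% in WT, a ratio of 0.687 (0.681 to 0.693). With 1 library per condition there is no replicate check, and the log-normal intervals cover counting error only. The gap was widest in the left part of the origin. In G2 each bin of the origin was lower in *sir2*, whereas in G1 the bins at 459071 to 459090 had ratios of 1.04 and 1.08. Of 26 bins, 4 were lower in *sir2* by over 1.5-fold in G1, against 5.5% of all bins, and 4 in G2, against 4.5%, all of them inside the origin. The first bin had a scaled depth of 0.892 in *sir2* and 2.12 in WT in G1, and 0.428 in *sir2* and 0.832 in WT in G2.

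The flank went the opposite way in G1. It took 4.55% of the depth in *sir2* and 3.33% in WT (ratio 1.36, 1.35 to 1.38). In G2 it took 3.72% in *sir2* and 4.15% in WT (ratio 0.897, 0.888 to 0.906). The 260 bases to the right of the region took 6.08% in *sir2* and 4.52% in WT in G1. In G2 they took 5.47% in *sir2* and 5.31% in WT. By bins, 7 of 26 were higher in *sir2* by over 1.5-fold in G1, against 32.5% of all bins, and 4 in G2, against 25.5%, in each case only bins of the flank. The 7 bins of G1 run from 459141 to 459210, and the widest ratio was 3.0 at 459181 to 459190, where scaled depth was 0.345 in *sir2* and 0.115 in WT. In G2 the widest ratio was 1.71, at 459161 to 459170, where it was 0.204 in *sir2* and 0.119 in WT. These are the bins of lowest depth in the 260 bases, so a small amount of depth gives a large ratio. The share of such bins was not above that of the whole table.

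**Figure D4:**
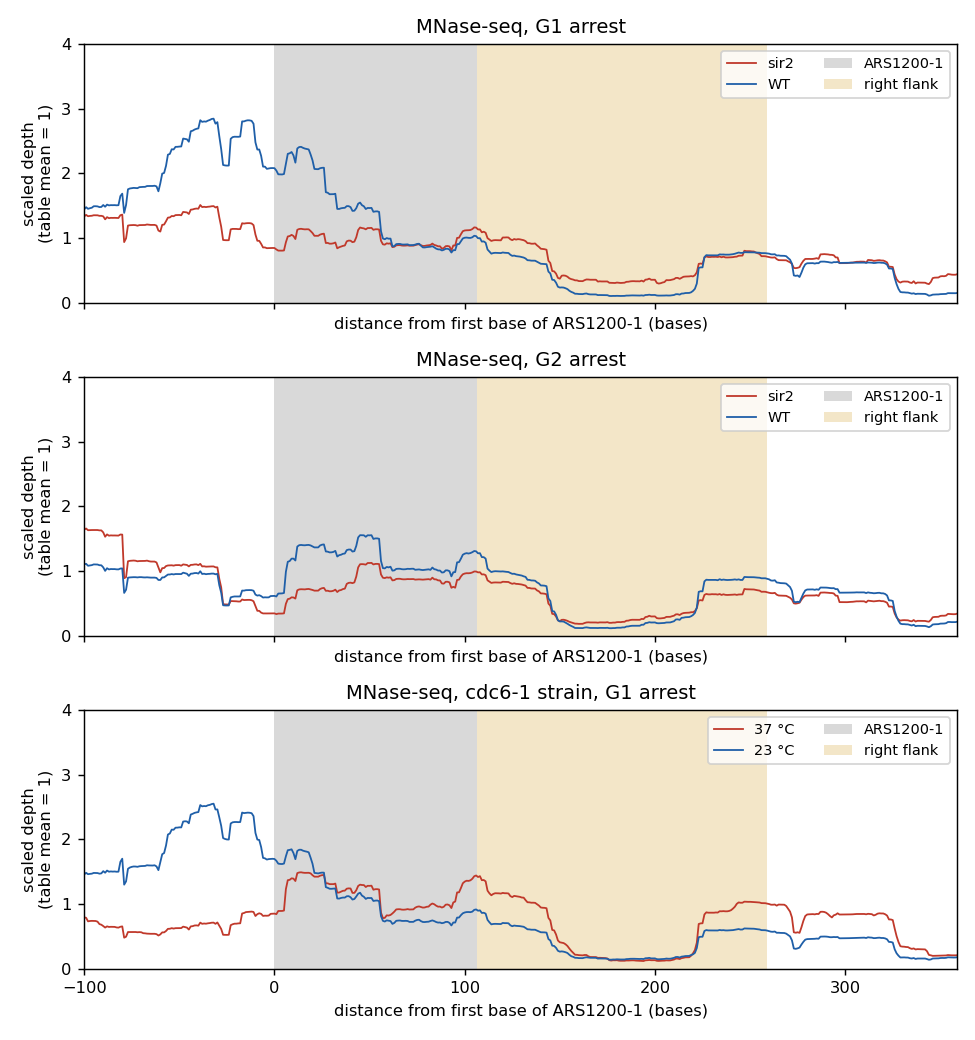
MNase-seq depth at each base, divided by the library's mean over the table (vertical axis), against distance from the first base of ARS1200-1 (bases). Top and middle: *sir2* (red) and WT (blue) in G1 and in G2. Bottom: *cdc6-1* at 37° (red) and 23° (blue). At the left end of the origin, the first bin has a scaled depth of 0.892 in *sir2* and 2.12 in WT in G1. All 6 libraries have a trough in the flank (lowest bin 0.107 to 0.317).

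Between arrests, the left end of the origin had a higher scaled depth in G1 than in G2 in both genotypes. In *sir2* the first bin of the origin had a scaled depth of 0.892 in G1 and 0.428 in G2 (ratio 2.09), and in WT it had 2.12 in G1 and 0.832 in G2 (ratio 2.54). The ratio declined over the left part of the origin in both, and in WT it was below 1 from 459041 to the end of the origin. Over the whole origin, G1 exceeded G2 by 1.20-fold in *sir2* (1.19 to 1.21) and by 1.18-fold in WT (1.17 to 1.19). Of 26 bins, 5 were higher in G1 by over 1.5-fold in *sir2*, against 4% of all bins, and 2 in WT, against 5%. Bins lower by over 1.5-fold numbered 0 in *sir2*, against 0% of all bins, and 3 in WT, against 7.5%.

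The flank share went in opposite directions in *sir2* and WT, a difference that was not tested. In *sir2* it was higher in G1 than in G2 (4.55% and 3.72%, ratio 1.22, 1.21 to 1.23). In WT it was lower in G1 than in G2 (3.33% and 4.15%, ratio 0.803, 0.794 to 0.811). These directions were not particular to the flank. The 260 bases to the right of the region took 6.08% in G1 and 5.47% in G2 in *sir2*, and 4.52% and 5.31% in WT. The bins with the widest ratios in *sir2* apart from the left end of the origin were 459141 to 459170, 1.56 to 1.76, which overlap the 50 bases after the ChEC rise. In WT the ratio there was 0.933 to 1.10. Digestion differed between the arrests, and its part in these values was not tested.

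Cells with *cdc6-1* at 37°, the restrictive temperature for Cdc6, were compared with the same strain at 23°. By the methods, the alpha-factor arrest was longer at 23° than at 37°. No strain with normal Cdc6 was available at 37°. The effects of Cdc6 loss, temperature and arrest time therefore cannot be told apart. The origin took 6.18% of the depth at 37° and 5.85% at 23° (ratio 1.06, 1.04 to 1.07). The flank took 4.66% at 37° and 3.11% at 23° (ratio 1.5, 1.48 to 1.52). This direction was not particular to the flank. To the right of the region, the next 260 bases took 6.47% at 37° and 3.84% at 23°. To its left, the adjoining 260 bases took 9.76% at 37° and 18.05% at 23°. The part of these neighbours in the flank share was not tested. The first bin of the origin was the only one of 26 that was lower at 37° by over 1.5-fold, against 8% of all bins (1.07 at 37° and 1.71 at 23°). Of 26 bins, 7 were higher by over 1.5-fold, against 21%, 6 of them in the flank and 1 across the end of the origin. The middle of the flank was not among them. At 459171 to 459180 scaled depth was 0.128 at 37° and 0.149 at 23°.

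The last 160 of the 260 bases (459091 to 459250) are the window of the third nucleosome to the right of the Reb1 footprint, a nucleosome being DNA wrapped around a histone octamer. Reads cover 50 bases at each end of a fragment, so a nucleosome-sized fragment adds no depth to its own middle. The ratio of mean depth in the middle 60 bases to that of the 50 bases at both ends was therefore computed for each library. In sonicated DNA it was 0.908 to 1.01. The G1 libraries, whose steps resembled those of MNase-seq, had 0.908 in *SIR2* and 0.947 in *sir2*. The S-phase libraries had 1.01 in *SIR2* and 0.985 in *sir2*.

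In MNase-seq the middle was lower than the ends in each library, and less so in *sir2* than in WT. The ratio was 0.433 in *sir2* and 0.194 in WT in G1, and 0.347 in *sir2* and 0.188 in WT in G2. In *cdc6-1* it was 0.190 at 37° and 0.288 at 23°. The scaled depth of the middle was 0.340 in *sir2* and 0.128 in WT in G1, and 0.234 in *sir2* and 0.156 in WT in G2. The ends differed less. In G1 the first 50 bases had 0.934 in *sir2* and 0.734 in WT, and the last 50 bases 0.636 in *sir2* and 0.588 in WT.

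In ChEC the ratio of the middle to the ends was 0.559 in native *sir2*, against 0.308 and 0.428 in WT, and 0.552 and 0.496 in expanded *sir2*, against 0.504 and 0.423 in *SIR2*. The expanded libraries overlap between genotypes when pooled, but paired by calcium time *sir2* was higher at 30 s (0.552 against 0.504) and at 60 s (0.496 against 0.423). This difference was not tested. Depth was uneven between the ends. The first 50 bases exceeded the last 50 by 2.58-fold in native *sir2*, against 1.63-fold and 1.80-fold in WT, and by 2.94-fold and 2.25-fold in expanded *sir2*, against 2.13-fold and 2.00-fold in *SIR2*. Each *sir2* library was thus above each *SIR2* library of its background. In MNase-seq the first end exceeded the last by 1.25-fold to 1.48-fold in all 6 libraries.

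**Figure D5:**
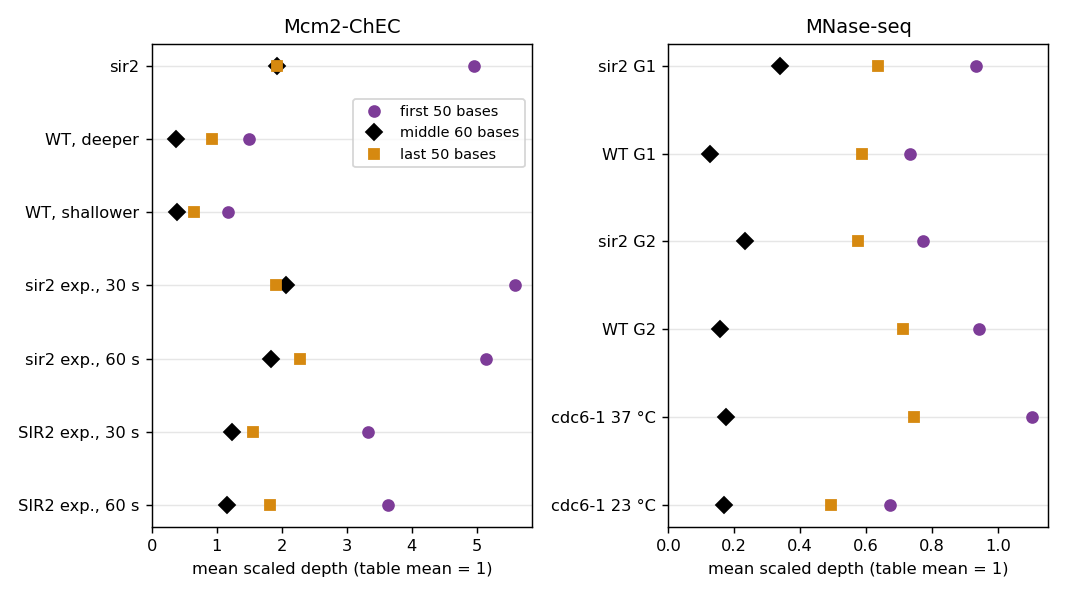
Mean scaled depth (horizontal axis, table mean = 1) in the first 50, the middle 60 and the last 50 bases of the third nucleosome's window, for each Mcm2-ChEC library (left) and MNase-seq library (right); exp. marks the expanded array. In MNase-seq the middle (0.128 to 0.340) lies left of both ends in each library. In ChEC the first 50 bases reach 4.95 to 5.59 in *sir2*, against 1.17 to 3.64 in *SIR2* and WT.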

How the data were processed

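The authors sequenced 50 bases from both ends of each fragment and deposited coverage, an unscaled signal that counts the reads overlapping every base of a 2001-base stretch of chromosome XII in 28 libraries. The submitters' processing notes name GSNAP, Picard and bedtools, and versions are not given in the sources used here. Expanded-array libraries were mapped to a modified chromosome XII. Of 28 columns, 17 were used and 11 (terminator and other *fob1* strains) were not used here. Column names give strain and condition but not which of 2 samples of a group they are. Within each used strain with 2 libraries, the counts differed far beyond sampling noise.

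Depth was scaled to each library's sum over the table. Sums divided by the lag at which steps of depth recur (50 bases in MNase-seq and ChEC) stood for reads. At most, shares of the origin and flank had 95% Wilson half-widths of 0.0848 points in MNase-seq and ChEC. Intervals cover counting error only and are too narrow, since each fragment gives 2 reads. Shares of *sir2* and *SIR2* libraries were tested by exact two-sided permutation inside each of 2 backgrounds (threshold 0.05), and MNase-seq shares as ratios with log-normal intervals. The text names the origin, the flank, the nucleosome window, the best motif match, the extreme bins and the 3 steepest rises and falls per library. Other positions were chosen after their values were seen. The region and these choices were made with earlier results of these data known.

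Alternatives were scaling to the Reb1 footprint (400 to 270 bases left of the origin), background subtraction, a boundary 20 bases farther right, the nucleosome window as flank, bins of 20 bases, a middle of 20 bases, strain means, leaving out each library and, chosen after seeing the data, pairing by calcium time, leaving out the origin's first 50 bases, and leaving out the table's last 100 bases, which are nearly empty in expanded-array ChEC libraries. The scripts were tested on simulated reads for the ChEC flank share: all 14 simulated libraries of 200000 reads returned the read length, with shares within 0.154 points. The software was matplotlib 3.10.9, scipy 1.17.1, pandas 2.3.3 and numpy 2.4.6 under Python 3.11.15.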

Additional observations from a re-analysis of the deposited data

Results flagged for a closer look

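The MNase-seq flank share moved in opposite directions in the 2 genotypes between arrests: the ratio of G1 to G2 was 1.22 in *sir2* and 0.803 in WT. Put the other way, the ratio of *sir2* to WT was 1.36 in G1 and 0.897 in G2. Each of these rests on 1 library per condition, and the difference between the genotypes or between the arrests was not tested. The opposite directions held under scaling to the Reb1 footprint, background subtraction and without the table's last 100 bases. They were not particular to the flank. The 260 bases to the right of the region took 6.08% in G1 and 5.47% in G2 in *sir2*, and 4.52% and 5.31% in WT. In G2 these bases, unlike the flank, took slightly more in *sir2* than in WT.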

How the results depend on the processing

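The 4 Mcm2-ChEC results kept their direction and their side of the threshold under each alternative run. Leaving out each library in turn gave 7.53 to 11.8 points for the flank share, 0.455 to 2.34 points for the origin share, 0.53 to 1.07 for the log2 ratio of flank to origin and 17 to 22 higher bins. The low end of the first 3 came without the native *sir2* library. As no p can pass the threshold in this design, its side of the threshold says nothing about stability. With strain means the differences in shares and in the log2 ratio were unchanged. Each background then holds a single value per genotype, too few for a test between strains. The labels give no replicate numbers that pair samples. With a replicate block by calcium time in the expanded array, added after seeing the data, the differences stayed at 11.5 and 1.80 points and 0.98, with exact permutation p of 0.0833 (the smallest of 12 arrangements), 0.167 and 0.0833. Without the first 50 bases of the origin, also added, the log2 ratio was 0.34. The middle of 20 bases lowered the ratio of middle to ends in all 13 libraries, to 0.679 to 0.936 of its value.

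Of 30 MNase-seq ratios recomputed, 22 moved beyond their counting intervals, 8 did not and none changed direction. The cause was not tested. For *sir2* over WT in G1, the origin ratio was 0.672 with background subtracted and 0.722 without the last 100 bases, and the flank ratio 1.45 and 1.41. In G2 under Reb1 scaling, background subtraction and without the last 100 bases, the origin ratio was 0.718, 0.652 and 0.715, and the flank ratio 0.938, 0.870 and 0.933. For G1 over G2 under the same settings, the origin ratio was 1.27, 1.23 and 1.18 in *sir2* and 1.31, 1.19 and 1.17 in WT, and the flank ratio 1.30, 1.27 and 1.20 in *sir2*. In WT it was 0.891 and 0.765 under the first 2. With background subtracted the flank ratio of *cdc6-1* at 37° over 23° was 1.74.

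Limits are 1 library per MNase-seq condition, 1 native *sir2* ChEC library, depth without fragment sizes or strand, and totals taken within the rDNA table, so that amounts relative to the rest of the genome were not analysed here.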
